A study of Oryza sativa with 4 samples.

Results

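The genes described here are 48 rice genes of 3 enzyme families, 21 peroxidases, 21 cytochrome P450 enzymes and 6 glutathione S-transferases, measured as array signals in leaves of wild type and of the *hd1-3* mutant. They were chosen by annotation, as the rows of a gene table published with the study whose annotation names 1 of the families, with genes on chromosomes 6 and 11 left out. Of 1996 table rows held here, 48 met the rule, and the arrays carry 57194 probe sets in all besides the controls. The table gives folds from the same 4 arrays, and its rows follow these folds. From the deposited signals, 29 of the 48 genes passed 2-fold in at least 1 day length, where 43.1% of all probe sets did. A fold between genotypes is therefore what the rule used, and it is given below as a description, with no test. The comparison of SD with LD was not part of the rule and was tested.

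Plants were 35 days old. Leaves came from the wild type, the japonica cultivar Zhonghua11, and from *hd1-3*, a mutant line whose *Hd1* gene carries several deletions and insertions and is not functional per the study. *Hd1* encodes a photoperiod regulator that acts through florigen genes, promoting flowering in short days and delaying it in long days. Plants of each genotype grew in a climate chamber at 28 °C under SD condition, with 11.5 h of light and 12.5 h of dark, or under LD condition, with 15 h of light and 9 h of dark. Samples were taken 3 h after light under SD and 5 h after light under LD, so day length and time after light cannot be told apart in any comparison between them. Each of the 4 groups was measured on 1 Affymetrix array, and the sources used here do not say how many plants were pooled. The signal is a linear intensity, and since all leaf cells were measured together, fewer cells of a type and less RNA per cell cannot be told apart.

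Across the arrays the median signal was 63.7 to 69.7, and the *Hd1* signal was 142 (wild type) against 60.5 (*hd1-3*) for SD and 89.3 against 5.40 for LD, lower in the mutant each time, with most of these values at the dim end. Leaf markers were bright, with chlorophyll a-b binding protein genes between 37208 and 49297 and 1 of 2 Rubisco small subunit genes between 28788 and 33062 (the other, RBCS1, was at 34.4 to 62.1), whereas the root silicon transporter Lsi2 was at 6.44 to 75.3 and the meristem gene OSH1 at 30.5 to 94.0. The root transporter Lsi1 was measured at 547 to 964. The control ratio of the 3′ to the 5′ end of GAPDH, a sign of RNA quality, moved with genotype. It was 1.64 under SD and 1.48 under LD in wild type, against 4.16 and 4.25 in *hd1-3*, while the same ratio of actin was 2.92 to 4.46 and that of cyclophilin 1.42 to 1.69. Its part in the genotype folds below was not tested.

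All 21 peroxidases are annotated as peroxidase precursors, the secreted class III enzymes of plants, which use hydrogen peroxide to oxidise phenolic compounds and so help to build lignin and cross-link the cell wall. Cytochrome P450 enzymes are membrane-bound monooxygenases that add oxygen in the synthesis and breakdown of hormones, sterols, phenolics and defence compounds. Glutathione S-transferases join the tripeptide glutathione to reactive or foreign compounds, which marks them for storage in the vacuole. All these families are large in rice, and many of their genes lie in tandem groups of close relatives.

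Signals of the 48 genes covered a wide range. The median over genes was 194 (wild type) and 237 (*hd1-3*) under SD, and 416 and 204 under LD. The brightest gene by its mean over the arrays was the peroxidase LOC_Os05g04500 and the dimmest the P450 gene LOC_Os01g41800. On every array, 24 genes reached a signal of 100, and 2, the P450 genes LOC_Os01g41800 (32.4 to 57.2) and LOC_Os02g36030 (55.9 to 81.3), did so on none. Folds of dim genes were less exact. How far log2 folds scatter, measured by the gap between the SD and LD folds over all probe sets and called their spread here, was 1.14 at mean signals of 50 to 100, 0.60 at 100 to 500, where 28 of the 48 genes lie, and 0.29 at 1000 to 5000. This spread includes real differences between the day lengths. Below, a pair of signals is given as wild type first and *hd1-3* second.

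**Figure D1:**
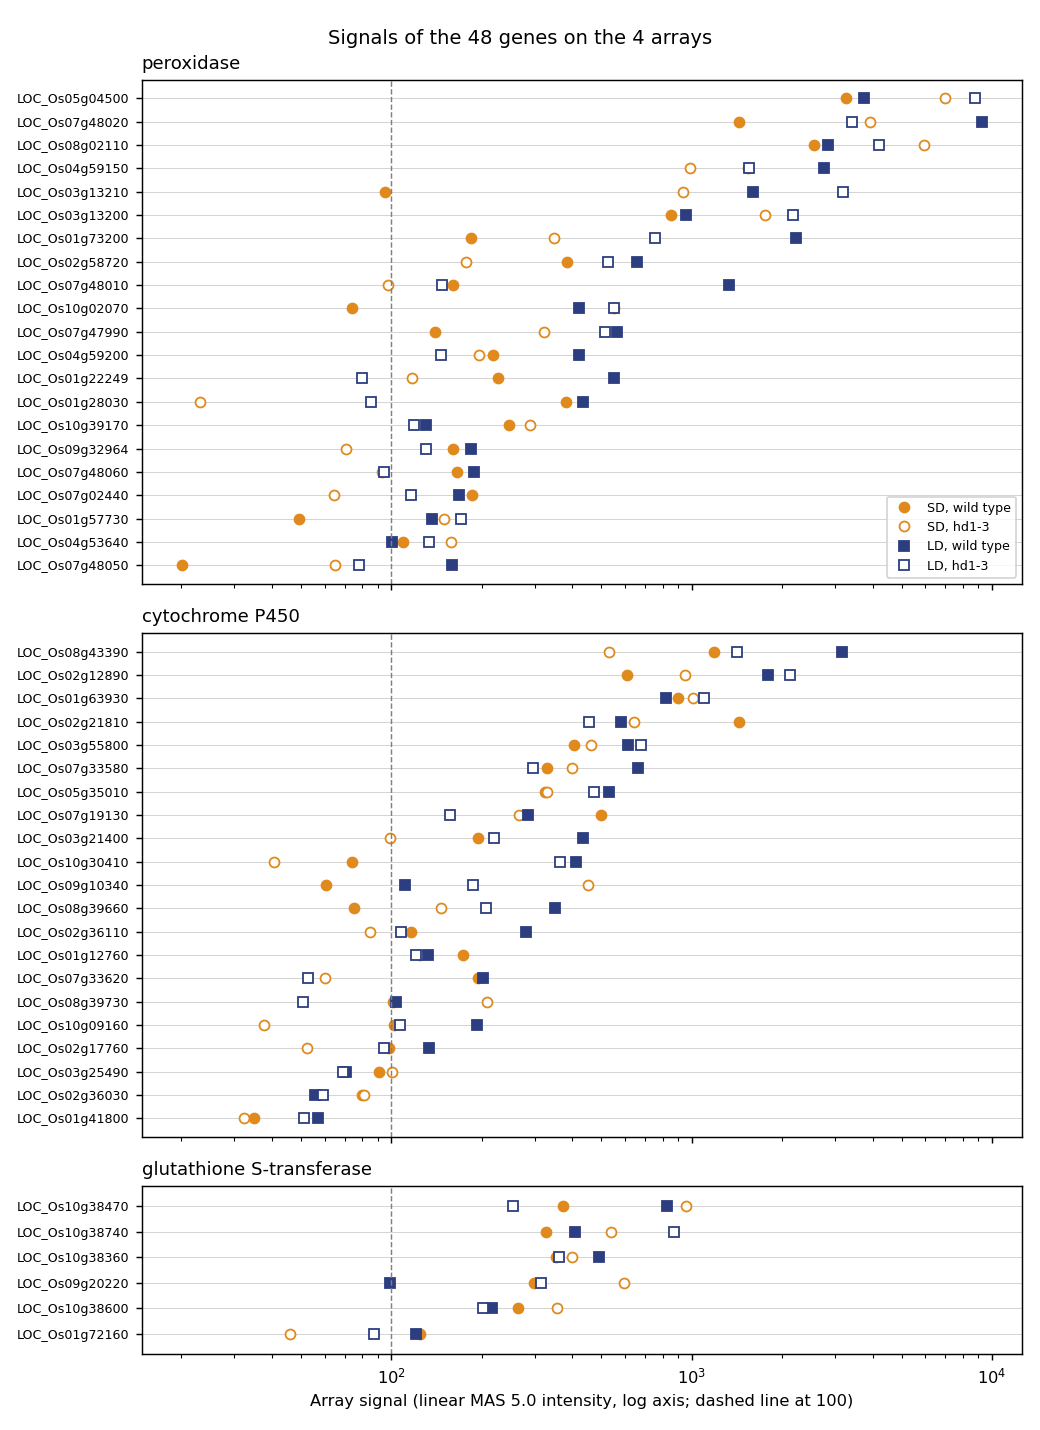
Signal of each of the 48 genes on the 4 arrays (linear intensity on a log axis, 1 array per point, orange circles for SD and blue squares for LD, filled for wild type and open for *hd1-3*), by family and ordered by mean signal. The LD wild type array stands highest in several peroxidases, as in LOC_Os07g48010 at 1331 and LOC_Os01g73200 at 2225.

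Under SD condition 21 of the 48 genes differed by more than 2-fold between genotypes, where 29.0% of all probe sets did. Of these, 12 were higher in *hd1-3* (13.9% of all probe sets) and 9 were lower (15.1%). Under LD condition 17 differed by more than 2-fold (27.8% of all probe sets), with 4 higher (12.3%) and 13 lower (15.5%). Most of the background comes from dim probe sets. Among the 24119 probe sets with a signal of 100 in at least 1 genotype at each day length, 7.50% were above 2-fold under SD and 6.17% under LD, and 42 of the 48 genes belong to that set. Because the table's rows follow these folds, nothing is read from these shares.

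By family, the folds lay as follows, with no test between families. Of the 21 peroxidases, 9 were more than 2-fold higher and 4 lower in *hd1-3* under SD, against 2 higher and 7 lower under LD. Their median log2 fold was 0.52 under SD and -0.49 under LD. P450 genes were mostly lower where they passed 2-fold, with 2 higher and 4 lower under SD and 0 higher and 5 lower under LD, and medians of -0.11 and -0.35. The 6 glutathione S-transferases had 1 higher and 1 lower under SD and 2 higher and 1 lower under LD, with medians of 0.58 and -0.28. Over all probe sets the medians were -0.01 and -0.05. Above 2-fold in neither day length were 4 peroxidases, 13 P450 genes and 2 glutathione S-transferases. Of these 19 genes, 14 have a 0 among the table's own signals where the deposited signal is above 0.

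**Figure D2:**
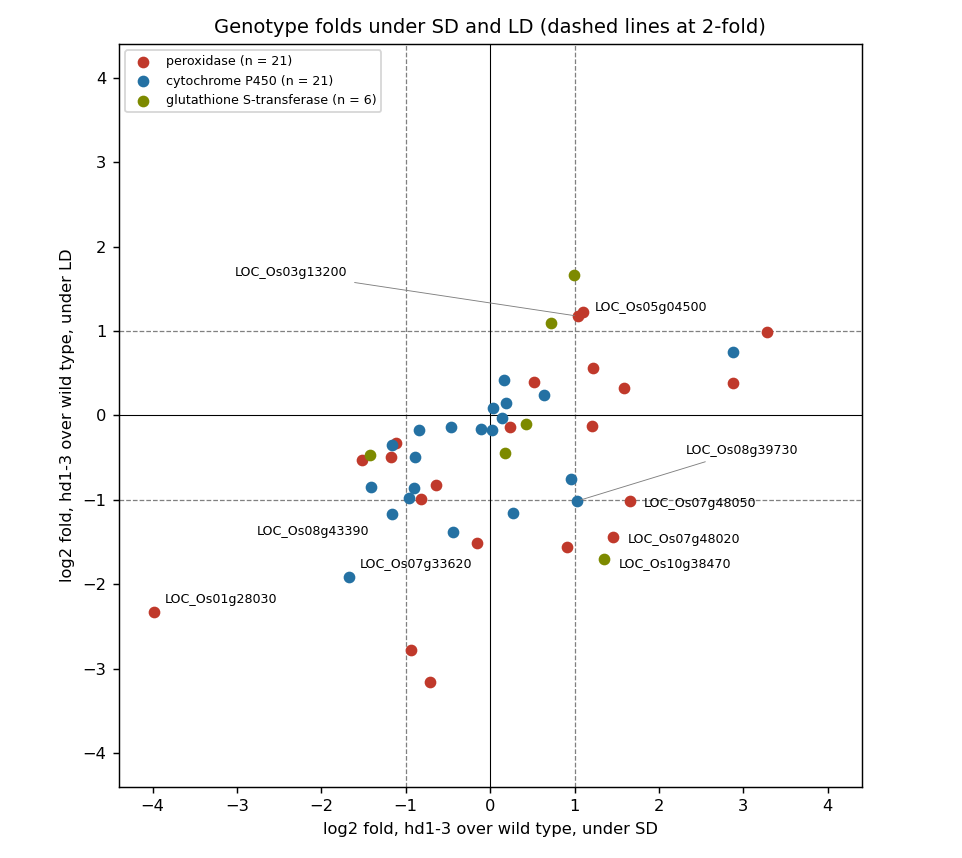
Log2 fold of *hd1-3* over wild type under SD (x axis) against LD (y axis) for each of the 48 genes, coloured by family, with dashed lines at 2-fold and names for the 9 genes past 2-fold under both. The lower right field, higher in *hd1-3* under SD and lower under LD, holds 13 genes, and the upper left field holds 0.

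Genes past 2-fold in opposite directions numbered 4 of 48, where 6.13% of all probe sets did so. Among the brighter probe sets they were 3 of 42, where 0.435% did so, and LOC_Os07g48050 was the one left out. All 4 were higher in *hd1-3* under SD and lower under LD. Counting any size of fold, the sign differed between the day lengths in 13 genes, 5 peroxidases, 5 P450 genes and 3 glutathione S-transferases (46.0% of all probe sets). Each of the 13 was higher under SD and lower under LD, as were 24.3% of all probe sets, and 0 ran the other way, as 21.7% did. The rule used these folds, so nothing is read from the counts. Of the 1620 other table rows off chromosomes 6 and 11, 11 were past 2-fold in opposite directions. With 1 array per group, the gap from SD fold to LD fold has no replicate and was not tested.

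LOC_Os07g48020, a peroxidase, was the brightest of the reversing genes. Under SD wild type had a signal of 1435 and *hd1-3* one of 3935, and under LD wild type had 9289.7 and *hd1-3* 3414. The wild type pair thus spanned a 6.47-fold range between the day lengths, while the *hd1-3* pair lay between the wild type values and close together. The log2 folds were 1.45 and -1.44.

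The glutathione S-transferase LOC_Os10g38470 reversed in both pairs of arrays. Wild type had 373 under SD and 828 under LD, and *hd1-3* had 955 under SD and 255 under LD. In wild type LD was the higher day length, by 2.22-fold, and in *hd1-3* it was the lower one. Its log2 folds were 1.35 and -1.70. A second probe set of the same gene was dim on all 4 arrays, at 8.65 and 55.3 under SD and 1.36 and 17.3 under LD. It was higher in *hd1-3* under both, so it showed no reversal, and values this dim give no check.

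LOC_Os08g39730, a P450 gene, sat just past the threshold on both sides. Wild type signals were almost equal under SD (101) and LD (104), and the *hd1-3* signals were 208 under SD and 50.8 under LD. The wild type arrays were level, and the log2 folds were 1.03 and -1.01. With signals under 100 raised to 100, the LD fold became -0.05.

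The peroxidase LOC_Os07g48050 was the dimmest of the reversing genes. It had 20.05 (wild type) and 65.2 (*hd1-3*) under SD, and 159 and 77.8 under LD. Only the LD wild type array exceeded 100, so the log2 folds of 1.65 and -1.02 rest on dim values. Raising signals under 100 to 100 left no difference under SD.

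**Figure D3:**
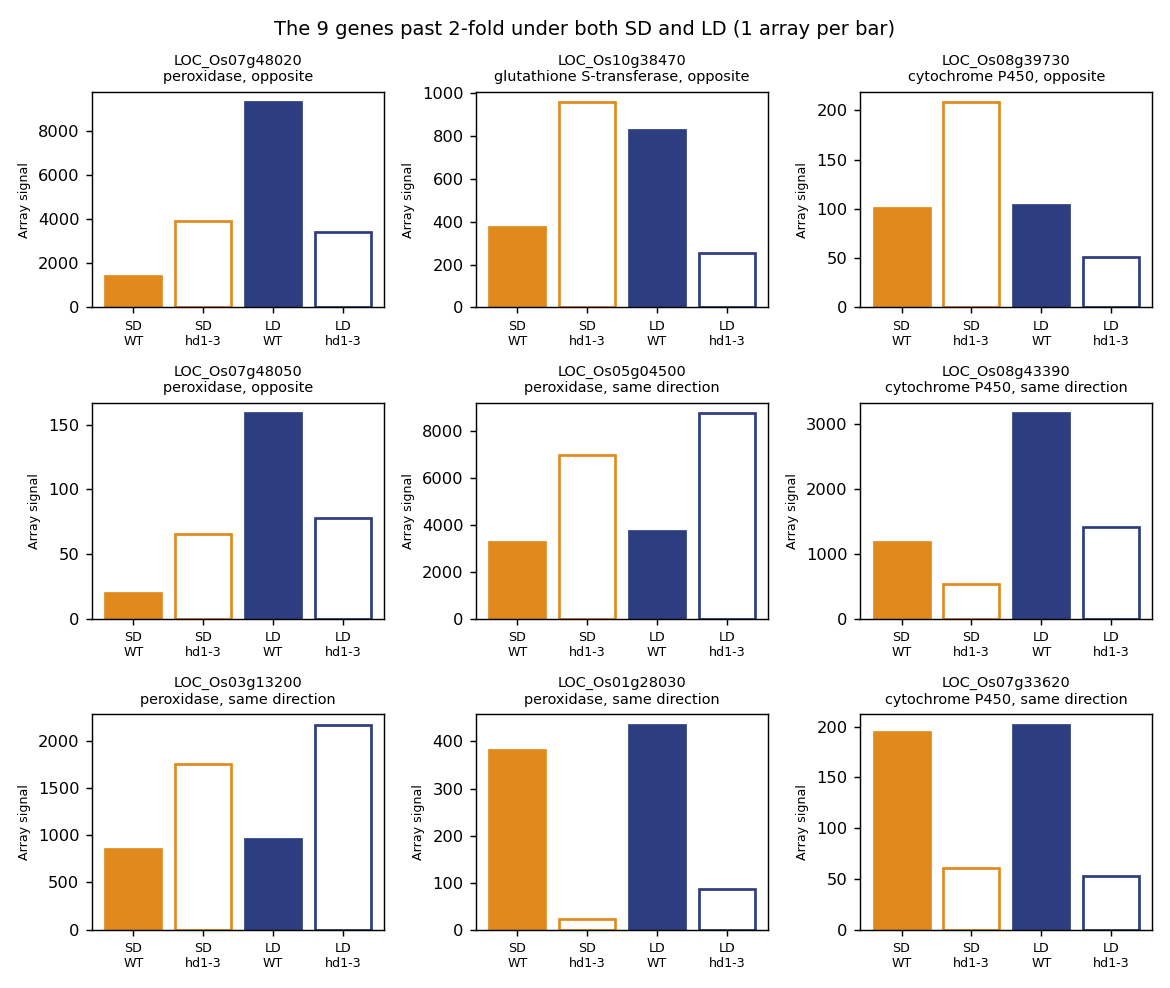
Signals of the 9 genes past 2-fold under both SD and LD, 1 bar per array from 0 (orange for SD, blue for LD, filled for wild type, open for *hd1-3*). In the 4 genes marked opposite the *hd1-3* bar is the taller one under SD and the shorter one under LD, and in the 5 marked same direction it is taller or shorter under both.

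Past 2-fold in the same direction under both SD and LD were 5 genes, where 7.51% of all probe sets and 2.53% of the brighter ones were. The 2 higher in *hd1-3* are bright peroxidases. LOC_Os05g04500 had 3264 in wild type and 6969 in the mutant under SD, and 3759 and 8757 under LD, with log2 folds of 1.09 and 1.22. Its probe set is of a type that can match several genes, and the platform lists a pair of genes for it, LOC4337732 and LOC4337730. LOC_Os03g13200 had 853 and 1754 under SD and 959 and 2168 under LD, with 1.04 and 1.18. In both genes the *hd1-3* signals lay above the wild type signals whatever the day length.

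The 3 lower in *hd1-3* were 1 peroxidase and 2 P450 genes. The peroxidase LOC_Os01g28030 differed the most, with 381 and 23.1 under SD, and 436 and 85.6 under LD. Both *hd1-3* values are under 100, and with those raised to 100 the gene was 3.81 times lower under SD and 4.36 times lower under LD. Among the P450 genes, LOC_Os08g43390 was the brighter, at 1188 and 530 under SD and 3162 and 1411 under LD, and its log2 fold was -1.16 in both. LOC_Os07g33620 had 194 and 60.3 under SD and 202 and 52.6 under LD, with folds of -1.67 and -1.92. Its *hd1-3* values are dim, and a floor of 100 brings the folds to -0.96 and -1.01. A second probe set of LOC_Os07g33620 was dim on every array (9.48 to 74.8), with folds of -2.56 under SD and -0.73 under LD.

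The genes furthest higher in *hd1-3* under SD included 2 further peroxidases. Next to LOC_Os03g13200 by locus number lies LOC_Os03g13210, with 95.4 and 932 under SD, and 1601 and 3183 under LD. The SD wild type array was the low one, and the log2 folds were 3.28 and 0.99. Its probe set can also match several genes, and a second probe set of the gene was dim on every array (0.91 to 1.27). LOC_Os10g02070 had a similar course, at 74.0 in wild type under SD and 550 in *hd1-3*, against 422 and 550 under LD, so that the fold was 2.88 under SD and 0.38 under LD. In both genes 3 arrays were bright and the SD wild type array stood below them.

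LD set another group of peroxidases apart. LOC_Os07g48010 had 161 and 97.7 under SD, and 1331 and 148 under LD, so the LD wild type array was 8.22-fold above the SD one and the LD fold was -3.16. LOC_Os01g22249 was measured at 227 and 117 under SD and at 553 and 79.7 under LD, with folds of -0.94 and -2.78. LOC_Os01g73200 had 185 and 349 under SD and 2225 and 756 under LD, with 0.91 and -1.56. LOC_Os04g59200 had 218 and 195 under SD and 421 and 147 under LD, with -0.16 and -1.52. In each of these 4 genes the LD wild type array was the highest of all.

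On chromosome 7, 5 peroxidases have neighbouring locus names, LOC_Os07g47990, LOC_Os07g48010, LOC_Os07g48020, LOC_Os07g48050 and LOC_Os07g48060. From LOC4344276, the platform's gene for the first, to LOC4344282, that for the last, the RefSeq table of assembly ASM3414082v1 lists 8 protein-coding genes, among them *PRX112*, a peroxidase outside the table rows. LOC_Os07g47990 had 139 and 322 under SD and 562 and 516 under LD, with folds of 1.20 and -0.13. LOC_Os07g48060 had 166 and 93.5 under SD and 188 and 94.3 under LD, with -0.82 and -0.99. *PRX112* had 141 and 100.3 under SD and 221 and 140 under LD, with -0.49 and -0.66. The LD wild type array was the highest for all of these neighbours, and under SD 3 of the 5 were higher in *hd1-3* and the other two were lower.

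Among the other peroxidases, LOC_Os08g02110 was bright, with 2557 and 5927 under SD and 2846 and 4197 under LD, and its folds were 1.21 and 0.56. LOC_Os04g59150, which lies near LOC_Os04g59200, had 1546 and 989 under SD and 2764 and 1557 under LD, with -0.64 and -0.83. These neighbours were both lower in *hd1-3*, though the second by little under SD. More than 2-fold lower under SD alone were LOC_Os07g02440 (-1.52), LOC_Os09g32964 (-1.17) and LOC_Os02g58720 (-1.11), and more than 2-fold higher under SD alone was LOC_Os01g57730 (1.59). The SD *hd1-3* signals of LOC_Os07g02440 and LOC_Os09g32964 were 64.2 and 70.7, and the SD wild type signal of LOC_Os01g57730 was 49.2. With signals under 100 raised to 100, the folds of these 3 genes became -0.89, -0.69 and 0.58, and none passed 2-fold. A second probe set of LOC_Os01g57730 was dim on every array (2.70 to 43.0), and its SD fold was -1.57. LOC_Os04g53640 (0.52 and 0.40) and LOC_Os10g39170 (0.24 and -0.13) were within 2-fold in both.

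The P450 genes spanned several known branches. LOC_Os02g21810 is annotated as cytochrome P450 51, the sterol 14-demethylase family, and had 1439 and 644 under SD, and 580 and 456 under LD. The SD wild type array was highest, and the folds were -1.16 and -0.35. LOC_Os03g55800 (*AOS1*), an allene oxide synthase of jasmonate synthesis, had 406 and 462 under SD and 616 and 680 under LD, with 0.19 and 0.14. LOC_Os02g36030 (*CYP76M5*), of a subfamily that modifies diterpenoids in rice, was dim throughout, while its neighbour LOC_Os02g36110 had 116 and 85.0 under SD and 281 and 108 under LD, with -0.44 and -1.38.

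LOC_Os09g10340 had 60.5 and 451 under SD and 111 and 187 under LD. The SD *hd1-3* array stood alone, and the log2 folds were 2.88 and 0.75. Its SD wild type signal is dim, and with a floor of 100 the SD log2 fold was 2.17, a signal at least 4.51-fold higher. Neighbouring P450 genes had unlike folds in some cases. LOC_Os07g33580, close to LOC_Os07g33620, had 330 and 398 under SD and 665 and 297 under LD, with folds of 0.27 and -1.16. LOC_Os08g39660, close to LOC_Os08g39730, had 74.9 and 147 under SD and 349 and 207 under LD, with 0.96 and -0.75, and so differed in sign in the same way as its neighbour without passing 2-fold.

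LOC_Os02g12890, among the brightest P450 genes, had 608 and 947 under SD and 1794 and 2125 under LD, and the genotypes lay within 2-fold in both. So did LOC_Os01g63930 (823 to 1101), LOC_Os05g35010 (325 to 531) and LOC_Os01g12760 (121 to 173). LOC_Os03g21400 (-0.96 and -0.98) and LOC_Os07g19130 (-0.90 and -0.86) were lower in *hd1-3* by just under 2-fold in both day lengths. LOC_Os10g30410 had 73.7 and 40.6 under SD and 411 and 365 under LD, and LOC_Os02g17760 (-0.89 and -0.49), LOC_Os10g09160 (-1.41 and -0.84) and LOC_Os03g25490 (0.14 and -0.03) were dim. Of these, LOC_Os10g09160 passed 2-fold under SD, and with a floor of 100 its fold was -0.03.

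Of the 6 glutathione S-transferases, 4 lie in a group on chromosome 10, LOC_Os10g38360, LOC_Os10g38470, LOC_Os10g38600 and LOC_Os10g38740. LOC_Os10g38740, which RefSeq lists under the synonym GSTU6, a tau class enzyme, had 326 and 540 under SD, and 408 and 871 under LD, with folds of 0.73 and 1.09. LOC_Os10g38600, which the gene table annotates with the same name, had 264 and 355 under SD and 217 and 202 under LD, with 0.43 and -0.11, and LOC_Os10g38360 had 353 and 398 under SD and 493 and 361 under LD, with 0.17 and -0.45. All 4 neighbours were higher in *hd1-3* under SD, and under LD LOC_Os10g38740 alone was. Such close relatives can share signal on an array, and the probe set of LOC_Os10g38600 is of a type that can match several genes. A second probe set of LOC_Os10g38740 was dim on every array (27.4 to 58.4), with folds of 1.06 under SD and -0.11 under LD.

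The other two transferases differed from each other. LOC_Os09g20220 had 298 and 593 under SD, and 99.3 and 316 under LD, so it was higher in *hd1-3* in both, with folds of 0.99 and 1.66. LOC_Os01g72160 had 125 and 45.9 under SD and 121 and 87.4 under LD, with -1.42 and -0.47. With a floor of 100 its SD fold was -0.32, within 2-fold. Both transferases lie outside the chromosome 10 group.

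Some of these genes stand at the 2-fold threshold itself, a log2 fold of 1. Just past it were LOC_Os08g39730 (1.03) and LOC_Os03g13200 (1.04) under SD, and LOC_Os08g39730 (-1.01) and LOC_Os07g48050 (-1.02) under LD. Just short of it were LOC_Os09g20220 (0.99) and LOC_Os08g39660 (0.96) under SD, and LOC_Os07g48060 (-0.99) and LOC_Os03g13210 (0.99) under LD. Each lies closer to the threshold than the spread of a fold at its brightness.

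Within wild type, 17 of the 48 genes were more than 2-fold higher under LD than under SD, where 16.1% of all probe sets were, and 2 were more than 2-fold higher under SD (14.3%). The 17 were 9 peroxidases, 7 P450 genes and 1 glutathione S-transferase. Within *hd1-3*, 9 genes were more than 2-fold higher under LD (15.8% of all probe sets), 4 peroxidases and 5 P450 genes, and 4 were more than 2-fold higher under SD (16.0%). The median log2 difference of SD minus LD in peroxidases was -0.84 in wild type and -0.31 in *hd1-3*. It was -0.69 and -0.34 in P450 genes and -0.14 and 0.48 in glutathione S-transferases. These ratios use the same arrays as the genotype folds and are given as a description only.

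**Figure D4:**
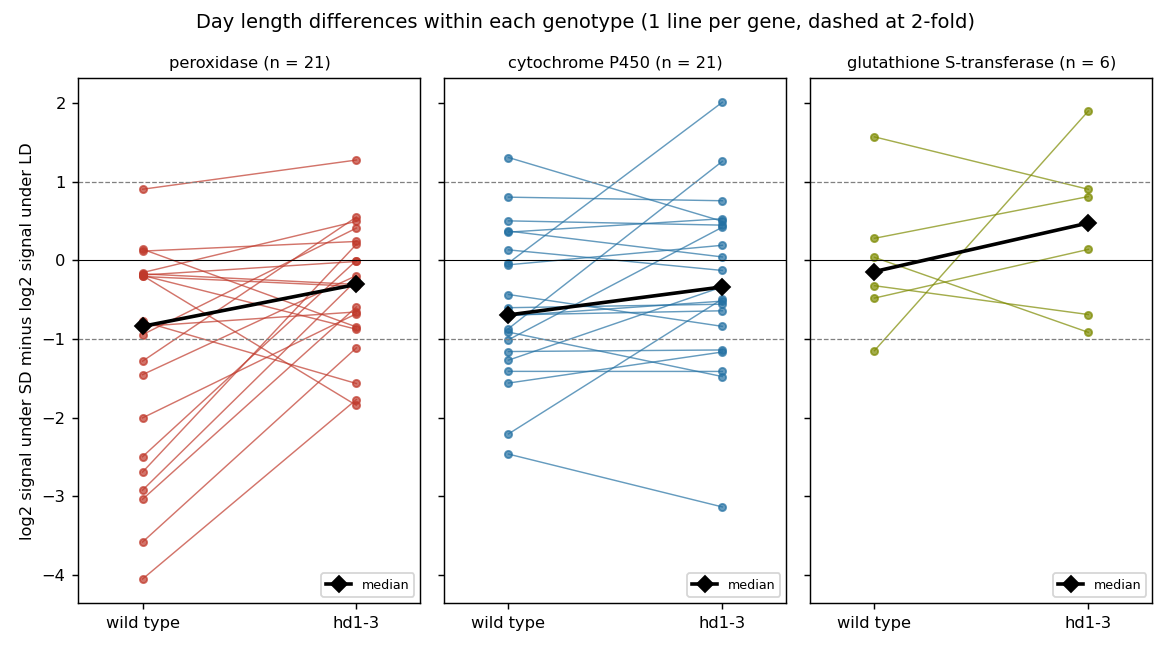
Log2 signal under SD minus log2 signal under LD in wild type and in *hd1-3*, 1 line per gene in 3 panels by family, with the family median in black and dashed lines at 2-fold. In wild type 9 of 21 peroxidases lie below the lower line, and in *hd1-3* 4 do.

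The mean difference between the day lengths over both genotypes was tested with limma on all 28133 probe sets with a signal of 100 on at least 1 array. The difference was not part of the rule, but its error comes from the gap between the SD and LD genotype folds, which the rule did use, so the p-values are not free of the rule. Of the 46 genes tested, 13 were called at a Benjamini-Hochberg adjusted p under 0.05, where 13.6% of all probe sets were. Lower under SD were 10 genes (7.09% of all probe sets) and higher under SD 3 (6.53%). The 10 were 6 peroxidases and 4 P450 genes, and the 3 were 1 gene of each family. All 13 had the same sign in wild type and in *hd1-3*. The error is the gap between the genotypes, so a gene with unlike signs could hardly be called, and nothing is read from this.

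LOC_Os03g13210 had the largest difference, at -2.91 on the log2 scale for SD minus LD (SE 0.41, limma adjusted p = 0.00184). The P450 gene LOC_Os10g30410, annotated as cytochrome P450 71D7, followed at -2.80 (SE 0.36, limma adjusted p = 0.00122), and both of its SD arrays were under 100. LOC_Os01g73200 differed by -2.35 (SE 0.45) and LOC_Os07g48010 by -1.82 (SE 0.48), with limma adjusted p = 0.00808 and 0.0339, and in both the wild type pair differed more than the *hd1-3* pair. LOC_Os08g43390 had the smallest p of the 48 genes (-1.41, SE 0.15, limma adjusted p = 0.000547), with nearly the same difference in each genotype.

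The other genes lower under SD were LOC_Os02g12890 (-1.36), LOC_Os07g47990 (-1.34), LOC_Os02g58720 (-1.17), LOC_Os03g21400 (-1.15) and LOC_Os04g59150 (-0.75), with limma adjusted p from 0.000993 to 0.0226. LOC_Os02g58720 had 384 and 177 under SD, and 658 and 526 under LD. LOC_Os03g21400 had 194 and 99.4 under SD and 435 and 220.0 under LD. Higher under SD were LOC_Os09g20220 (1.24, SE 0.26), LOC_Os10g39170 (1.09, SE 0.30) and the sterol demethylase family gene LOC_Os02g21810 (0.90, SE 0.22), with limma adjusted p = 0.0131, 0.0424 and 0.0246. LOC_Os10g39170 had 246 and 290 under SD and 131 and 119 under LD, so both SD arrays were above both LD arrays. LOC_Os07g48020, with the wide gap in wild type given above, was not called (-1.24, limma adjusted p = 0.137).

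**Figure D5:**
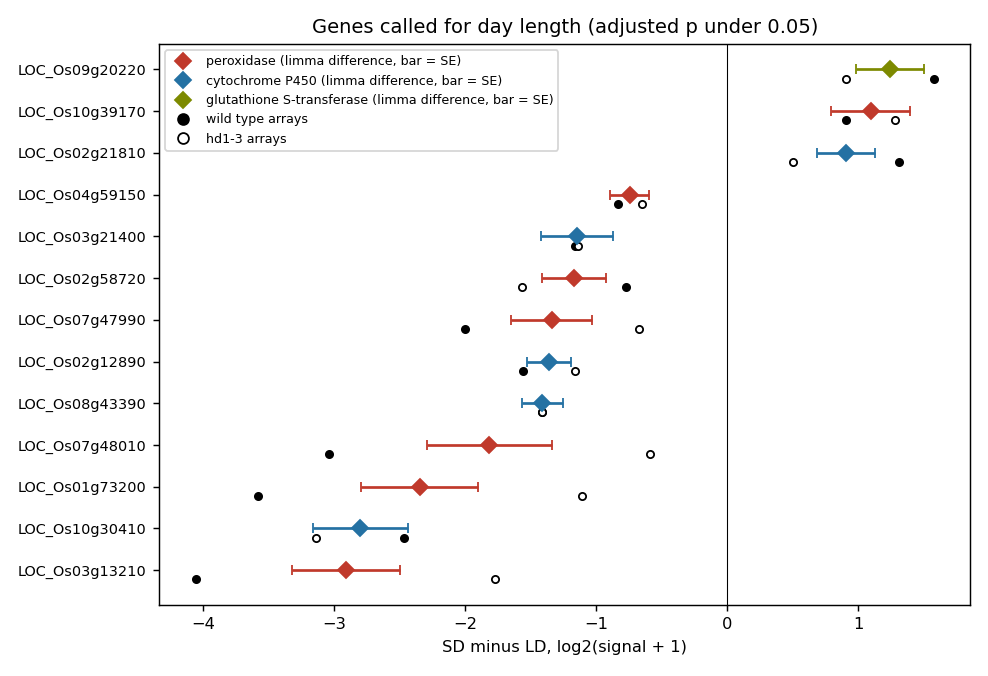
Mean log2 difference of SD minus LD from limma for the 13 genes called (diamonds coloured by family, bars 1 SE), with the difference within wild type (filled circles) and within *hd1-3* (open circles) below each. The 10 genes lower under SD reach from -0.75 to -2.91 and the 3 higher from 0.90 to 1.24.

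The error has 1 residual degree of freedom per gene and borrows from all other probe sets. Of the 13 genes, LOC_Os07g48010 was not called with quantile normalization or a filter of 500 (limma adjusted p = 0.0546 and 0.0787). LOC_Os09g20220, the 1 glutathione S-transferase called, was also tested at the filter of 500 and not called there. LOC_Os10g39170 was not called with no filter on low signals (limma adjusted p = 0.0767). Calls changed greatly when an array was left out, in fits that also lack the genotype term: 0 of the 46 genes were called without the SD wild type array, 3 without the SD *hd1-3* array, 0 without the LD wild type array and 2 without the LD *hd1-3* array. At an unadjusted p under 0.05 limma had 15 and 8 genes in the fits with 0 calls. With the genotype term left out and all arrays kept, 2 were called, 4.35% of the 46 against 4.61% of all probe sets. Fitted with genotype as the tested term, 8 of the 46 genes had an adjusted p under 0.05 (2.07% of all probe sets), which is what the rule selected for.

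Genes of the same families outside the gene table, found by symbol in the RefSeq table, numbered 28 (21 P450 genes, 5 glutathione S-transferases and 2 peroxidases). The gene table's rows follow the genotype folds of these arrays, so leaving those rows out tends to leave genes with small folds. Low counts past 2-fold and of genotype calls can follow from that choice, and nothing is read from them. Of the 20 bright enough by the same rule of 100, 0 passed 2-fold under SD (7.50% of all probe sets that bright) and 1 under LD (6.17%). That gene was *CYP99A2*, which acts in momilactone synthesis, at 105 and 93.7 under SD and 295 and 111 under LD (log2 fold -1.40). Among all 28, 1 passed 2-fold in the same direction in both (7.51% of all probe sets), and 0 in opposite directions (6.13%). The 1 was *CYP703A3*, a P450 gene of pollen wall formation, with signals of 0.97 to 17.3. Among those 20, the P450 genes of hormone pathways were within 2-fold, as in the brassinosteroid C6-oxidase *OsDWARF* (LOC4333399), with 294 and 433 under SD and 428 and 839 under LD. Limma called 0 of the 24 tested for genotype (2.07% of all probe sets), with 4 at an unadjusted p under 0.05, and 3 for day length (13.6% of all probe sets). Those 3 became 1 with the genotype term left out and 0 in every fit with 1 array left out, where 3 to 8 of the 24 had an unadjusted p under 0.05.

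Enzymes around these families were listed by symbol too, 15 that handle hydrogen peroxide and glutathione and 24 of phenylpropanoid and lignin synthesis. None of the 15, catalase, superoxide dismutases, ascorbate peroxidases and the reductases of ascorbate and glutathione, passed 2-fold between genotypes under SD or LD. All 15 are bright by the rule of 100, and of all probe sets that bright 7.50% passed under SD and 6.17% under LD. Limma called 0 of the 15 for genotype (2.07% of all probe sets), with 4 at an unadjusted p under 0.05. For day length limma called 5 of the 15 (13.6% of all probe sets), 3 higher and 2 lower under SD. Higher were *SodCc1* (0.61), *MDAR2* (0.53) and *APX4* (0.68). Lower were *APX7* (-0.74) and the catalase gene *CatA* (LOC4328073). *CatA* had 11756 and 16449 under SD and 24315 and 28902 under LD, a difference of -0.93 (SE 0.11, limma adjusted p = 0.000642).

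In the phenylpropanoid and lignin list 4 of 24 genes were more than 2-fold higher and 1 lower in *hd1-3* under SD (13.9% and 15.1% of all probe sets). Under LD 2 were higher and 3 lower (12.3% and 15.5%), and the medians were 0.39 and 0.23. Among the 18 bright enough by the rule of 100, 1 was higher and 1 lower in each day length, with medians of 0.18 and 0.38. Of all probe sets that bright, 7.50% passed 2-fold under SD and 6.17% under LD. The bright gene higher under SD, *LAC24*, had 1.74 in wild type and 136 in *hd1-3*. Limma called 3 of the 20 tested for genotype (2.07% of all probe sets). The list was set by name, but earlier results of these data were known when it was chosen. The laccase *LAC4* (LOC4327500), of the enzymes that join lignin units, rose in *hd1-3*, with 842 and 1618 under SD and 928 and 2069 under LD (1.05, SE 0.16, limma adjusted p = 0.0087). The 4-coumarate-CoA ligase *4CL3* (LOC4328485) also rose, with 3442 and 5659 under SD and 3209.8 and 5171 under LD (0.70, SE 0.12, limma adjusted p = 0.0206). The ligase-like gene *4CLL7* (LOC4342925) fell, with 968 and 204 under SD and 467 and 229 under LD (-1.63, SE 0.29, limma adjusted p = 0.0197). None of the 3 held in a fit without the day length term (0 called, 5 at an unadjusted p under 0.05) or in any such fit with 1 array left out (0 called, 2 to 3 unadjusted). The GAPDH ratio moved with genotype too, as given above, and its part was not tested. For day length 4 of the 20 were called (13.6% of all probe sets), 1 higher and 3 lower under SD. With the genotype term left out 2 genes in this list and 2 of the 15 were. Most of these calls were lost when any 1 array was left out.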

How the data were processed

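Leaf RNA of each group was hybridised to an Affymetrix rice array. The authors used the MAS 5.0 algorithm, and the deposited values are linear intensities, 1 for each probe set on each of the 4 arrays. Every array has the same 2% trimmed mean of 500, and no detection calls were used. Its target and settings are not stated in these sources. Depth has no meaning for these arrays, and their number limits the precision.

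After removal of 187 control probe sets, folds were taken as log2 of (signal + 1) in *hd1-3* over wild type, with no test. The supplementary gene table gave annotations and locus names only. Its fold columns hold the authors' own comparison and were not used, and 22 of the 48 genes have a 0 in its signal cells where the deposited signal is above 0. The platform table gave 1 gene for 34 of the 48 probe sets, several for 1 and none for 13.

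Limma 3.58.1 in R 4.3.3 (lmFit, eBayes with trend) fitted genotype and day length on log2(signal + 1), over probe sets at 100 or more on at least 1 array, and p-values were adjusted by Benjamini-Hochberg over all of these and called under 0.05. Groups have no replicates. The p-values set a mean difference between day lengths or genotypes against an error taken from how unlike the genotypes were in their response to day length, over these 4 arrays. Folds, counts and plots came from pandas 2.3.3, numpy 2.4.6 and matplotlib 3.10.9 under Python 3.11.15.

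Genes named with values are those above 2-fold in both day lengths, the 2 largest folds per family and day length with a brighter array at 100 or more, the 8 brightest, neighbours with locus numbers within 150, those called for day length and those nearest to 2-fold. The others are named at least once, and some list genes named were chosen after their values were seen. The members and the gene lists were chosen with earlier results of these data known. Lists were matched by symbol in the RefSeq table of assembly ASM3414082v1, with the brightest probe set per gene. Alternatives were 32 added to each signal, quantile normalization, scaling by bright probe sets, signals under 100 raised to 100, filters at 100 and 500, no probe sets able to match several genes, and for limma no filter, 1 term and each array left out. Sequences of these genes are not printed, and the study's qRT-PCR data were not analysed here.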

Additional observations from a re-analysis of the deposited data

Results flagged for a closer look

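In 4 genes the arrays of SD moved one way between genotypes and those of LD the opposite way, each by more than 2-fold, and the difference was not tested because each group has 1 array. The log2 fold under SD minus that under LD was 3.05 in the glutathione S-transferase LOC_Os10g38470, 2.90 in the peroxidase LOC_Os07g48020, 2.67 in the peroxidase LOC_Os07g48050 and 2.05 in the P450 gene LOC_Os08g39730. Across all probe sets 6.13% were past 2-fold in opposite directions.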

How the results depend on the processing

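The number of genes past 2-fold in opposite directions was 4 and became 2 with 32 added to each signal, with quantile normalization, with signals under 100 raised to 100 and with a filter of 500 on the brighter array of a pair. LOC_Os10g38470 and LOC_Os07g48020 were the 2 in each. At the filter of 500, which leaves 13 genes, 9 passed 2-fold under SD, 6 under LD and 3 in the same direction in both. The share of all probe sets at that filter was not computed, and the rule used these folds, so nothing is read from these counts. The 1 other family gene past 2-fold in the same direction became 0 with 32 added, with signals raised to 100 and with either filter. In the list of hydrogen peroxide and lignin genes, 5 passed under SD and 5 under LD, against 3 and 2 with 32 added and 2 and 2 with the filter of 100. No setting reversed the sign of a called result.

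Day length calls among the 46 genes were 13, against 8 with the filter of 500 (22 genes tested) and 2 with the genotype term left out, and 0 to 3 with 1 array left out (named in the report). Over all probe sets they were 3831, against 1298 with that term left out and 154 to 348 with 1 array left out. Genotype calls were 8, against 5 with quantile normalization, 3 with the filter of 500, 0 with the day length term left out (8 at an unadjusted p under 0.05) and 0 to 0 with 1 array left out, and there limma gave 7 to 15 at an unadjusted p under 0.05. Of all probe sets tested, 1.75% were called for genotype with quantile normalization, 2.17% with the filter of 500 and 0.188% with the day length term left out. Fits with 1 array left out have fewer samples and only 1 term. The cause of the other shifts was not tested. Folds within a day length have 1 array on each side, so no array could be left out of them. The limma fit compares the day lengths within each genotype, and there are no replicate numbers to pair further. The median of all folds moved by under 0.1 on the log2 scale in every scaling tried. Signals near or under 100 limit what can be said, and 24 of the 48 genes have one or more.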
